A study of Mus musculus with 18 samples.

Results

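The BCL2 family sets whether a cell survives or dies through its mitochondria, and 10 of its genes were followed here in mouse leukaemia cells carrying guide RNAs against Jmjd1c. They were chosen by name from the 23899 genes of the expression table, with earlier results of these data known. They fall into 3 roles: the survival genes Bcl2, Mcl1 and Bcl2l1, the effectors Bax and Bak1, and the BH3-only genes Bcl2l11, Bmf, Bbc3, Pmaip1 and Bid. The effector proteins open pores in the outer mitochondrial membrane and so release cytochrome c, which sets off the caspases. Survival proteins hold the effectors and the BH3-only proteins in a groove on their surface, and the BH3-only proteins, made or activated under stress, fill that groove or act on the effectors themselves. Myeloid leukaemia cells often lean on MCL1 or BCL2, and cytokines such as interleukin-3 are known to keep survival genes up and BH3-only proteins low.

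The cells were MLL-AF9 Cas9 cells from a mouse primary leukaemia, where MLL-AF9 is a fusion oncoprotein and Cas9 the nuclease that a guide directs to its target. All groups shared this background and grew in RPMI medium with serum and mouse IL3. The 18 poly(A) RNA libraries fall into 6 groups with 3 each. In 4 groups the cells carried the guide e12.3, e12.4, e20.1 or e21.1, which the study directed at the jumonji and zinc finger domains of Jmjd1c (a nuclear protein of the H3K9 demethylase family). The other groups are mock and Renilla, a name commonly used for guides against a luciferase gene that mice lack. Which guide cuts which domain, what mock received, how long the cells carried a guide and whether the libraries of a group were separate cultures is not stated in the labels. The p-values below therefore measure only the spread between these libraries within their groups, which may be technical. For the 4 guides together they do not take in the spread between guides.

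Levels are the authors' FPKM values, fragments scaled by transcript length and by the total of the library, so they can be compared between genes. Estimated depth was 20.7 to 182.7 M reads per library, and 1 FPKM of a 2 kb transcript stood for 41 to 365 reads. Jmjd1c was at 42.2 to 74.4 FPKM in the 12 guide libraries (mean 64.1 ± 9.24), at 71.8 to 77.1 in mock (74.5 ± 2.69) and at 64.2 to 85.4 in Renilla (78.3 ± 12.26; SD, n = 12, 3 and 3), and a transcript level does not measure the protein that a cut gene still makes. All 10 markers of myeloid leukaemia averaged 1 FPKM or more in each group, with a summed level of 2196 to 5386 FPKM in guide libraries, 4974 to 5159 in mock and 4694 to 5383 in Renilla (medians 2628, 4984 and 4697), and all 5 B cell and all 5 stromal markers averaged under 1 FPKM. The summed level of 5 macrophage markers was 92.3 to 196 FPKM in guide libraries, against 50.8 to 57.2 in mock and 46.8 to 51.7 in Renilla, and that of 6 mature neutrophil markers was 103 to 910, against 85.3 to 113 in mock and 99.5 to 184 in Renilla. Of the 10 myeloid leukaemia markers limma called Csf2rb, Itgam and Ptprc higher over Renilla and Mpo, Ctsg and Prtn3, enzymes of immature granules, lower (log2 fold changes of -2.09, -1.03 and -0.58). No marker of the macrophage or neutrophil list was at 0 throughout a group, and the median log2 fold change over Renilla was 1.46 for the 4 macrophage and 1.03 for the 5 neutrophil markers tested. Of these limma called 3 macrophage and 2 neutrophil markers higher, beside 7.77% of all genes. The part of these markers in the results below was not tested, and in bulk RNA a change in the number of cells of a type and a change in RNA per cell cannot be told apart.

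A few libraries, 4 in all, stood apart from the rest of their groups. Replicate 3 of e12.3 scored -41.1 and replicate 3 of e21.1 scored -49.9 on principal component 2 (21.9% of the variance), with all others above 0. On component 1 (26.2%) the controls scored 14.3 to 35 and the guide libraries apart from these scored -19.2 to -6.6. There e12.3 replicate 3 scored 21.6, among the mock libraries (19.5 to 21.7), and e21.1 replicate 3 scored 3.2. On component 3 (13.6%) e20.1 replicate 2 and Renilla replicate 1 scored 33.6 and 34.3, with all others at 6.3 or below. Calls of the members that changed without them are given beside the results.

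Across the 18 libraries the effector Bax had the highest mean level, 154.3 FPKM, and the BH3-only gene Bmf the lowest, 1.55 FPKM. Between them came Bak1 at 84.2, Mcl1 at 81.2, Bid at 49.4, Bcl2l1 at 23.2, Pmaip1 at 21.2, Bbc3 at 15.2, Bcl2l11 at 14.02 and Bcl2 at 7.22 FPKM. Bax lay above Bak1, Bid above Bcl2l1, and Bcl2 above Bmf with no overlap between libraries. All other neighbours in this order, such as Bak1 and Mcl1, overlapped between libraries. Mcl1 was the most abundant survival transcript and Bid the most abundant BH3-only transcript.

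**Figure D1:**
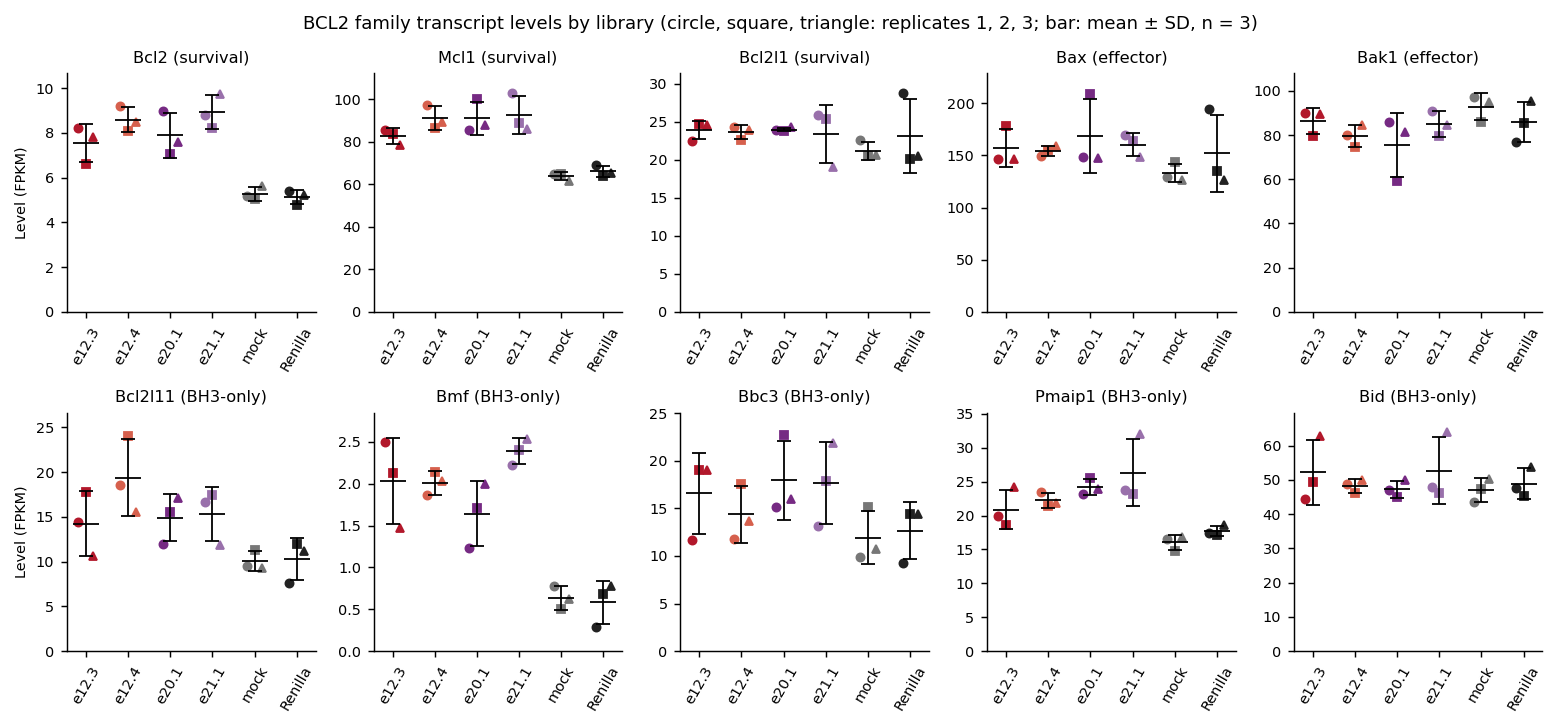
Level of each of the 10 genes in FPKM (y axis, from 0) for the 6 groups of 3 libraries (x axis), with a point per library and the mean ± SD. Bcl2, Mcl1 and Bmf in every guide library lie above every mock and Renilla library, while Bcl2l1, Bak1 and Bid overlap between guides and controls.

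With the 4 guides as a whole against Renilla, 5 of the 10 genes rose and none fell: the survival genes Bcl2 and Mcl1, and the BH3-only genes Bcl2l11, Bmf and Pmaip1 (limma on log2(FPKM + 1), Benjamini-Hochberg adjusted p under 0.05). Of all 11550 genes tested, 11% were called, 7.77% higher and 3.21% lower. The median log2 fold change was 0.37 over the 10 genes and -0.03 over all genes tested. Members of opposite function thus rose together, and neither effector was called. All 10 genes passed the filter, a mean of 1 FPKM or more, but Bmf did so only through its guide libraries, since it was under 1 FPKM in every control library. Of the other 9 members 4 rose. As all 10 genes were chosen with earlier results of these data known, their share against that of all genes was not tested.

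**Figure D2:**
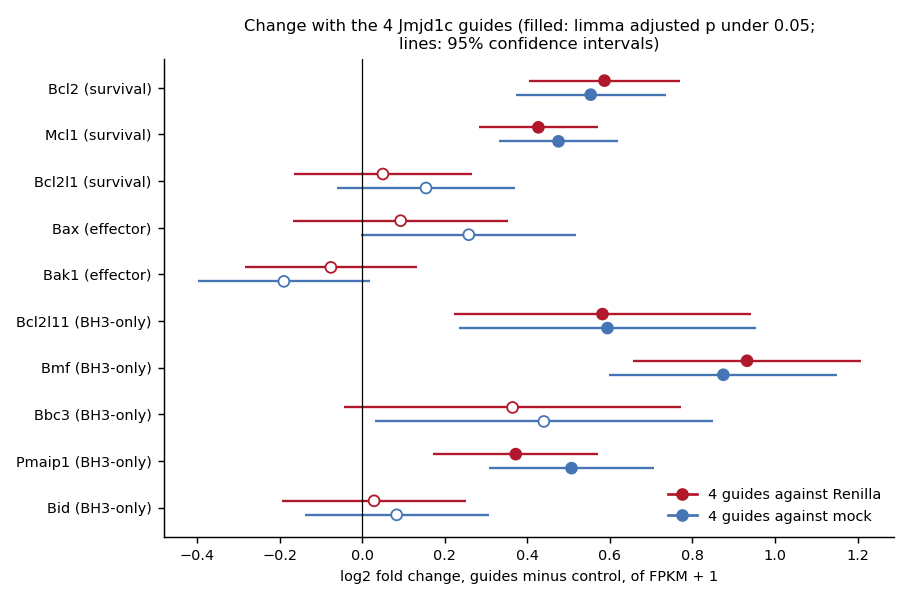
Log2 fold change (x axis, of FPKM + 1) of the 4 guides over Renilla (red) and over mock (blue) for each gene, with 95% confidence intervals and filled points where the limma adjusted p was under 0.05. The same 5 genes are filled for both controls, from 0.37 for Pmaip1 to 0.93 for Bmf over Renilla, and the other 5 points are open.

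Bcl2 encodes the founding member of the family, which protects cells at the mitochondrial and endoplasmic reticulum membranes (ENSMUSG00000057329.7, GRCm38 chr1:106538178-106714274, minus strand). Its level was 8.21, 6.61 and 7.80 FPKM with e12.3 and 9.20, 8.09 and 8.48 FPKM with e12.4. With e20.1 it was 8.995, 7.06 and 7.59 FPKM and with e21.1 8.81, 8.21 and 9.71 FPKM. Mock libraries held 5.16, 5.03 and 5.61 FPKM and Renilla libraries 5.40, 4.76 and 5.22 FPKM. The lowest guide library, e12.3 replicate 2, was above the highest control library, mock replicate 3. Bcl2 averaged 8.23 ± 0.89 FPKM with the guides (SD, n = 12), 1.61 times the 5.13 ± 0.33 FPKM in Renilla (n = 3). On the log2 scale the difference was 0.59 (SE 0.086, limma adjusted p = 2.5e-04), and Bcl2 was called in all 33 alternatives run.

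Mcl1 encodes a short-lived survival protein that is made and degraded quickly (ENSMUSG00000038612.16, chr3:95658788-95663176, plus strand). With e12.3 it stood at 85.4, 83.8 and 78.3 FPKM and with e12.4 at 97.5, 86.6 and 89.4 FPKM. It stood at 85.7, 99.9 and 87.7 FPKM with e20.1 and at 102.8, 88.9 and 86.1 FPKM with e21.1. In mock it was at 64.7, 65.0 and 61.7 FPKM and in Renilla at 69.0, 63.9 and 65.3 FPKM. No guide library came down to the control range, whose top was Renilla replicate 1. The mean of 89.3 ± 7.15 FPKM with the guides was 35.3% above the 66.1 ± 2.62 FPKM in Renilla. Its log2 fold change was 0.43 (SE 0.068, limma adjusted p = 5.5e-04), also called in all 33 alternatives. In absolute terms this was the larger gain of transcript, since Mcl1 was the more abundant gene.

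Bcl2l1, which encodes BCL-XL and the death-promoting splice form BCL-XS, was the survival gene that was not called (ENSMUSG00000007659.18, chr2:152780668-152831728, minus strand). It was at 19.0 to 25.9 FPKM in the 12 guide libraries (median 24.1), at 22.6, 20.5 and 20.6 FPKM in mock and at 28.8, 20.12 and 20.5 FPKM in Renilla. The highest library of all was Renilla replicate 1, and the lowest was e21.1 replicate 3. The log2 fold change was 0.05 (95% interval -0.17 to 0.27, limma adjusted p = 0.82). It was called in 2 of 33 alternatives, with array quality weights and without the 4 libraries that stand apart (0.24 on the log2 scale, limma adjusted p = 0.012). Levels are sums over splice forms, so the long and short forms of Bcl2l1 and of Mcl1 cannot be told apart here.

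For the called genes whose start is in the RefSeq promoter table (GRCm38.p6, matched for 9 of the 10 genes by symbol), the 250 bases before the most upstream start are shown so that genes that moved together can be read side by side. Each runs 5′ to 3′ on the gene's strand, and capitals mark a match to 1 of 4 motifs searched on both strands.
Bcl2, chr1:106714291-106714540, minus strand: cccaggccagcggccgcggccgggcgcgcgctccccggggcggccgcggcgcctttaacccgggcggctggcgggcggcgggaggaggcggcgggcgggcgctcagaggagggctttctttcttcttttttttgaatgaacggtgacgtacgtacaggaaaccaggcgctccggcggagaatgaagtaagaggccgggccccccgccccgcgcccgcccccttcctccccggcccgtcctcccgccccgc
Mcl1, chr3:95658471-95658720, plus strand: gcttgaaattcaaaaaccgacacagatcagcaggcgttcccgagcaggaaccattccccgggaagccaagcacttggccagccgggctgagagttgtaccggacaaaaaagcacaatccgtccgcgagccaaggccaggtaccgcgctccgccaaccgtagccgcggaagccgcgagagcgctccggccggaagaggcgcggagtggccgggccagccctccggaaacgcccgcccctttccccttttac
Bcl2l11, chr2:128125788-128126037, plus strand: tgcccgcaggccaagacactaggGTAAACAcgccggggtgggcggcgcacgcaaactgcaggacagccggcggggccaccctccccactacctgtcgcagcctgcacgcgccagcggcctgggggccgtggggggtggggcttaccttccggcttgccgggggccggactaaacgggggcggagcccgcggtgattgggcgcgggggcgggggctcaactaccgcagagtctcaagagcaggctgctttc
Bmf, chr2:118549687-118549936, minus strand: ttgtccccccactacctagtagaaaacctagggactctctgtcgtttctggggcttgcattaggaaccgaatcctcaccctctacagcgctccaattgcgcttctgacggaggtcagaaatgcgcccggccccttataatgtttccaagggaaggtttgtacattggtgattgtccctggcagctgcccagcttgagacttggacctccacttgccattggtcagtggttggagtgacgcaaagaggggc
The windows of Bcl2, Bcl2l11 and Mcl1 were 74.8%, 72.0% and 64.4% G or C and that of Bmf 54.0%, with a median of 52.4% over 32817 windows. The FOXO motif GTAAACA, held by 3.16% of all windows, was found in that of Bcl2l11 and of no other gene among the 9. The STAT motif TTCNNNGAA (7.01% of windows) was found in none, the RUNX motif TGTGGT (4608 of the 32817 windows) in that of Bak1, and the MYC motif CACGTG (6.02%) in that of Bax. None of these motifs contains another, and a match is only a run of letters, not a bound site.

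Bax and Bak1 encode the effectors, either of which can open the outer membrane, and neither was called with the 4 guides together. Bax (ENSMUSG00000003873.11, chr7:45461697-45466898, minus strand) was at 146.8 to 209.2 FPKM in the guide libraries (median 152.0), against 129.5, 143.3 and 126.9 FPKM in mock and 194.5, 135.3 and 126.4 FPKM in Renilla. Bak1 (ENSMUSG00000057789.14, chr17:27019810-27029009, minus strand) was at 59.0 to 90.8 FPKM in the guide libraries (median 82.9), against 97.5, 85.9 and 95.1 FPKM in mock and 77.0, 85.5 and 95.2 FPKM in Renilla. The guides overlapped Renilla for both genes. Log2 fold changes over Renilla were 0.09 for Bax (95% interval -0.17 to 0.35, limma adjusted p = 0.70) and -0.08 for Bak1 (-0.28 to 0.13, adjusted p = 0.69).

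The spread of the effectors came largely from libraries that stand apart. The highest Bax level of all, 209.2 FPKM, and the lowest Bak1 level, 59.0 FPKM, were both in e20.1 replicate 2. In Renilla replicate 1 Bax was the highest and Bak1 the lowest of the 6 control libraries. The level of Bax over that of Bak1 was 3.54 in e20.1 replicate 2 and 2.53 in Renilla replicate 1, and 1.33 to 2.24 in the other 16 libraries. Without the 4 libraries that stand apart Bax was called, with a log2 fold change of 0.27 over Renilla (limma adjusted p = 0.019), while Bak1 was called in none of the 33 alternatives.

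Among the BH3-only genes Bmf, whose protein is held on the cytoskeleton until stress frees it, had the largest fold change (ENSMUSG00000040093.15, chr2:118528757-118549687, minus strand). Its level was 2.49, 2.13 and 1.47 FPKM with e12.3 and 1.86, 2.14 and 2.03 FPKM with e12.4. It was 1.23, 1.71 and 1.997 FPKM with e20.1 and 2.223, 2.40 and 2.54 FPKM with e21.1. Mock held 0.78, 0.50 and 0.62 FPKM and Renilla 0.29, 0.69 and 0.77 FPKM. Every guide library was above every control library, in a gene that remained scarce in all groups. The mean of 2.02 ± 0.40 FPKM with the guides was 3.46 times the 0.58 ± 0.26 FPKM in Renilla, where 1 FPKM of a 2 kb transcript stood for 61.5 to 77.5 reads. On the log2(FPKM + 1) scale, which understates changes at such levels, the fold change was 0.93 (SE 0.13, limma adjusted p = 1.6e-04). Bmf was called in all 32 alternatives that tested it. With no filter, so that its guide libraries did not decide whether it was tested, the adjusted p was 3.6e-04 over Renilla and 6.6e-04 over mock. The same libraries entered this fit, and Bmf was chosen with earlier results of these data known, so this is no independent support.

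Bcl2l11 encodes BIM, a BH3-only protein that binds all the survival proteins and is known for killing blood cells deprived of cytokine (ENSMUSG00000027381.16, chr2:128126038-128162547, plus strand). It was at 14.4, 17.8 and 10.6 FPKM with e12.3 and at 18.5, 24.1 and 15.6 FPKM with e12.4. With e20.1 it was at 11.99, 15.6 and 17.1 FPKM and with e21.1 at 16.6, 17.4 and 11.8 FPKM. Mock libraries stood at 9.57, 11.3 and 9.25 FPKM and Renilla libraries at 7.61, 11.99 and 11.2 FPKM. All 12 guide libraries were above the Renilla mean and 10 above the highest control library, the exceptions being the third libraries of e12.3 and e21.1. Its mean was 15.9 ± 3.62 FPKM with the guides, against 10.3 ± 2.34 FPKM in Renilla, which is 0.58 on the log2 scale (SE 0.17, limma adjusted p = 0.036).

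The call of Bcl2l11 was the least secure of the 5, and held in 22 of the 33 alternatives. Without Renilla replicate 1, its lowest library, the log2 fold change was 0.40 and the limma adjusted p 0.26. The adjusted p was 0.065 without Renilla replicate 3, 0.053 without e12.3 replicate 1, 0.052 without e12.4 replicate 2 and 0.055 without e20.1 replicate 3. It was 0.052 without e21.1 replicate 1 and 0.053 without e21.1 replicate 2, and 0.11 with guide e12.4 left out. Without Renilla replicate 1 and e20.1 replicate 2 it was 0.27, with no filter 0.073 and with only the compared groups in the model 0.062, while without the third libraries of e12.3 and e21.1, and without all 4 that stand apart, Bcl2l11 was called.

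Pmaip1 encodes NOXA, a BH3-only protein that binds MCL1 above all and promotes its degradation (ENSMUSG00000024521.8, chr18:66458533-66465565, plus strand). With e12.3 its level was 19.9, 18.6 and 24.2 FPKM and with e12.4 it was 23.5, 21.3 and 21.9 FPKM. It stood at 23.1, 25.5 and 24.0 FPKM with e20.1 and 23.8, 23.2 and 32.02 FPKM with e21.1. In mock Pmaip1 was at 16.6, 14.8 and 16.8 FPKM and in Renilla at 17.4, 17.2 and 18.6 FPKM. Of the guide libraries e12.3 replicate 2 was just below the highest control, Renilla replicate 3, and the other 11 were above it. The mean was 23.4 ± 3.34 FPKM with the guides and 17.7 ± 0.74 FPKM in Renilla, which is 0.37 on the log2 scale (SE 0.094, limma adjusted p = 0.017). It was not called without Renilla replicate 1 (adjusted p = 0.076), without Renilla replicate 2 (0.084), or with Renilla replicate 1 and e20.1 replicate 2 both left out (0.083).

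Bbc3 encodes PUMA, a p53 target and one of the strongest BH3-only killers (ENSMUSG00000002083.13, chr7:16308393-16318205, plus strand). It was at 11.7 to 22.7 FPKM in the guide libraries (median 16.8), against 9.90, 15.1 and 10.8 FPKM in mock and 9.24, 14.4 and 14.4 FPKM in Renilla. Of the 12 guide libraries 8 were above every control library, but the lowest lay among the controls. The log2 fold change was 0.36 (SE 0.19, 95% interval -0.05 to 0.77, limma adjusted p = 0.26), and 0.17 to 0.46 with 1 library left out. The lowest of these, 0.17 (adjusted p = 0.73), was without Renilla replicate 1, and without all 4 libraries that stand apart it was 0.06 (adjusted p = 0.87).

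Bid encodes a BH3-only protein that links death receptors to mitochondria once caspase-8 has cut it (ENSMUSG00000004446.12, chr6:120891930-120916853, minus strand). Its level was 44.3 to 64.1 FPKM in the guide libraries (median 48.5), against 43.5, 47.4 and 50.3 FPKM in mock and 47.8, 45.2 and 53.9 FPKM in Renilla. The highest libraries were replicate 3 of e21.1, at 64.1 FPKM, and of e12.3, at 62.8 FPKM, and the other 10 guide libraries lay within the range of the controls. The log2 fold change was 0.03 (95% interval -0.19 to 0.25, limma adjusted p = 0.90), and it was -0.04 without those 2 libraries.

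Against mock, which shares the guide libraries with the comparison above, the same 5 genes rose and none fell, where 9% of all genes were called (6.84% higher, 2.16% lower). Among the 5, Bmf passed the filter only through its guide libraries. The log2 fold changes over mock were 0.55 for Bcl2, 0.48 for Mcl1, 0.59 for Bcl2l11, 0.87 for Bmf and 0.51 for Pmaip1, with limma adjusted p of 4.5e-04, 2.2e-04, 0.038, 3.2e-04 and 0.0021. Bax was at 0.26 (adjusted p = 0.24), with all 12 guide libraries above the 3 mock libraries as for 6.52% of all genes tested, and Bak1 at -0.19 (adjusted p = 0.29), with all 12 below the mock mean. Bcl2l1, Bbc3 and Bid were at 0.15, 0.44 and 0.08 (adjusted p = 0.43, 0.20 and 0.72). Without the 4 libraries that stand apart, limma called Bax (0.24, adjusted p = 0.011) and Bcl2l1 (0.19, adjusted p = 0.016) over mock. With array quality weights both were called as well (adjusted p = 0.0098 for Bax and 0.026 for Bcl2l1). The Bcl2l11 call over mock held in 16 of 28 alternatives: its adjusted p was 0.16, 0.079 and 0.19 without mock replicates 1, 2 and 3, and 0.05036 to 0.05651 without any 1 of replicates 1 and 2 of e12.3, of e12.4 and of e21.1 and replicates 2 and 3 of e20.1.

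Mock against Renilla gave a base line for these differences. No member and no gene of the 11550 was called by limma, 127 genes and none of the members had an unadjusted p under 0.05, and 6 genes at most were called in any alternative. Those 127 are a smaller share than a threshold of 0.05 lets through when no gene differs, so these p-values may run large. The lack of calls therefore does not show that mock and Renilla are alike, and the reason for the low count was not tested. Member differences, mock minus Renilla, ran from -0.17 for Bax to 0.11 for Bak1 on the log2 scale. Over both control groups together, the 12 guide libraries lay above all 6 control libraries for 3 of the 10 members, Bcl2, Mcl1 and Bmf, as for 4.92% of all genes tested. They lay below all 6 for no member (1.59% of all genes). Of the 3 members above, Bmf passed the filter only through its guide libraries, and without it Bcl2 and Mcl1 are left.

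Guide by guide, against the same 3 Renilla libraries, Bcl2 and Bmf rose with each of the 4 guides. For e12.3 these were the only members called, 2 of 10 where 3.2% of all genes were (3.03% higher). With e12.4 Bcl2, Mcl1, Bcl2l11 and Bmf rose, where 7.09% of all genes were called (5.57% higher). With e20.1 (5.68%, 4.61% higher) and e21.1 (9.51%, 7.06% higher) Bcl2, Mcl1, Bmf and Pmaip1 rose. No member was called lower with any guide. Bmf is counted for each guide, though it passed the filter only through its guide libraries, and without it Bcl2 alone is left with e12.3.

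The log2 fold change of Bcl2 was 0.48 with e12.3, 0.65 with e12.4, 0.53 with e20.1 and 0.69 with e21.1 (limma adjusted p = 0.021, 0.0013, 0.0070 and 5.7e-04). That of Bmf was 0.94, 0.94, 0.74 and 1.11 in the same order of guides (adjusted p = 0.0036, 0.0018, 0.013 and 3.5e-04). Mcl1 was at 0.32, 0.46, 0.46 and 0.48 (adjusted p = 0.061, 0.0032, 0.0041 and 0.0019), so that with e12.3 it missed the threshold, though it was called in 9 of 28 alternatives (adjusted p = 1.5e-04 to 0.32). Bcl2l11 was at 0.43, 0.86, 0.50 and 0.54 (adjusted p = 0.41, 0.022, 0.22 and 0.14), and Pmaip1 at 0.22, 0.31, 0.43 and 0.53 (0.47, 0.15, 0.046 and 0.0089). The members called with 1 guide and not with another were not shown to differ between guides, as the tests below give.

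Several of the calls for 1 guide turned on 1 library. The Bcl2 call with e12.3 was lost without e12.3 replicate 1 or 3 or Renilla replicate 2 or 3 (adjusted p up to 0.10), and the Bcl2l11 call with e12.4 without e12.4 replicate 1 or 2 or Renilla replicate 1 (up to 0.12). The Bmf call with e20.1 was lost without e20.1 replicate 3 or Renilla replicate 1 (up to 0.066). The Pmaip1 call with e20.1 was lost without any library but e12.3 replicates 2 and 3 and the 3 of e21.1 (up to 0.14). Mcl1 calls with e12.4, e20.1 and e21.1, and all calls with e21.1, held with any 1 library left out.

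With only the 3 libraries of a guide and the 3 of Renilla in the model, which leaves fewer libraries to estimate the spread, more of these calls were lost. With e12.3 none was left, as the limma adjusted p was 0.26 for Bcl2 and 0.15 for Bmf. With e20.1 none was left either, at 0.077 for Bcl2, 0.070 for Mcl1, 0.099 for Bmf and 0.065 for Pmaip1. With e21.1 Mcl1 (0.086) and Pmaip1 (0.13) were lost, and with e12.4 Pmaip1 was gained at 0.04987.

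Libraries that stand apart also moved calls for 1 guide. Without the third libraries of e12.3 and e21.1, limma also called Mcl1 with e12.3 (log2 fold change 0.35, adjusted p = 0.031), Pmaip1 with e12.4 (0.31, adjusted p = 0.012) and Bcl2l11 with e21.1 (0.70, adjusted p = 0.042). Without Renilla replicate 1 and e20.1 replicate 2, Mcl1 was called with e12.3 (0.35, adjusted p = 0.039), while Bcl2l11 with e12.4 (0.67, adjusted p = 0.12), Bmf with e20.1 (0.58, adjusted p = 0.14) and Pmaip1 with e20.1 (0.38, adjusted p = 0.25) were not. Without all 4, the added calls were Mcl1 with e12.3 (0.38, adjusted p = 0.0088) and Pmaip1 with e12.4 (0.30, adjusted p = 0.018).

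**Figure D3:**
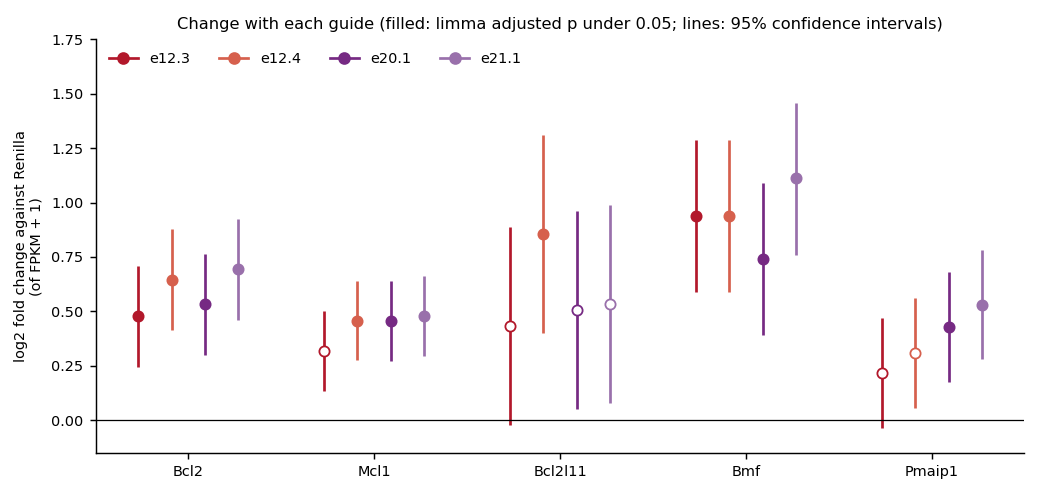
Log2 fold change over Renilla (y axis, of FPKM + 1) of the 5 genes called with the 4 guides together, a point per guide with its 95% confidence interval, filled where the limma adjusted p was under 0.05. All 20 points lie above 0, from 0.22 for Pmaip1 with e12.3 to 1.11 for Bmf with e21.1. The genes were picked by the mean of these same guides over the same Renilla libraries, so the shared sign is no separate support.

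Differences between guides were tested by contrasts of guide means alone, with the control libraries still part of the estimate of spread. For e20.1 and e21.1 against the guides whose names begin with e12, limma called no member and no gene (1 gene at most in any alternative), with 179 genes at an unadjusted p under 0.05. Pmaip1 was the 1 member among them, with a mean of 24.2 FPKM for e20.1 and 26.3 for e21.1, against 20.9 for e12.3 and 22.2 for e12.4, a log2 difference of 0.22 (unadjusted p = 0.021, adjusted p = 1.00). A limma moderated F test over the 4 guides also called no member and no gene, and of 238 genes with an unadjusted p under 0.05 none was a member. In its alternatives 6 genes at most were called, none of them a member. The smallest of its unadjusted p-values over the members was 0.084, for Pmaip1. Both 179 and 238 genes are a smaller share than a threshold of 0.05 lets through when no gene differs, so the lack of calls does not show that the guides are alike.

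Summed by role, the survival genes came to 121.3 ± 7.96 FPKM with the guides (SD, n = 12), 90.3 ± 2.27 in mock and 94.3 ± 7.75 in Renilla (n = 3 each), and the lowest guide library, at 110.7, was above the highest control, at 103.2 FPKM. Effectors summed to 242 ± 13.3 FPKM with the guides, 226 ± 3.66 in mock and 238 ± 29.1 in Renilla, with overlap. The BH3-only genes summed to 108 ± 9.91 FPKM with the guides, 85.7 ± 4.74 in mock and 90.2 ± 8.27 in Renilla, also with overlap. These sums get no test, since the genes were chosen with results known, and they count transcripts, not proteins. They cover only the 10 members: among others, the copies of Bcl2a1, a survival gene described below, the family gene Bcl2l2 and the BH3-only gene Bad are left out. Bad was at 30.0 FPKM with the guides and 29.3 FPKM in Renilla. Bcl2l2 was at 13.6 FPKM with the guides and 13.0 FPKM in Renilla, and neither was called.

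The ratio of survival to effector transcript was 0.502 ± 0.031 with the guides, 0.399 ± 0.007 in mock and 0.398 ± 0.016 in Renilla. It ran from 0.446 to 0.572 in guide libraries, all above the control range of 0.380 to 0.411. The ratio of survival to BH3-only transcript did not part the groups: it was 1.13 ± 0.13 with the guides (0.868 to 1.32), 1.06 ± 0.08 in mock (1.00 to 1.15) and 1.06 ± 0.17 in Renilla (0.921 to 1.25). The lowest guide libraries were replicate 3 of e21.1, at 0.868, and of e12.3, at 0.937, in which Bid was highest. The summed transcript of Bcl2, Mcl1 and Bcl2l1 thus stood higher against the effectors, whose sum overlapped between groups. Within that sum Bcl2l1 itself hardly moved, at 23.8 FPKM with the guides and 23.2 FPKM in Renilla. The ratio of the survival sum to the BH3-only members, of which 3 rose as well, overlapped.

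Known partners were also set against each other. Mcl1 over Pmaip1, which binds it, was 3.87 ± 0.51 with the guides, 3.99 ± 0.37 in mock and 3.73 ± 0.22 in Renilla. Bcl2 over Bcl2l11 was 0.544 ± 0.153 with the guides, 0.531 ± 0.081 in mock and 0.524 ± 0.164 in Renilla, and was under 1 in every library. Both ratios overlapped between guides and controls. Within their roles, Mcl1 made up 73.6% of the survival sum with the guides, 70.7% in mock and 70.2% in Renilla, so that sum was mostly Mcl1. Bid, which was not called, made up 46.3% of the BH3-only sum with the guides, 54.9% in mock and 54.4% in Renilla, and Bmf made up 1.88% with the guides, 0.749% in mock and 0.633% in Renilla.

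**Figure D4:**
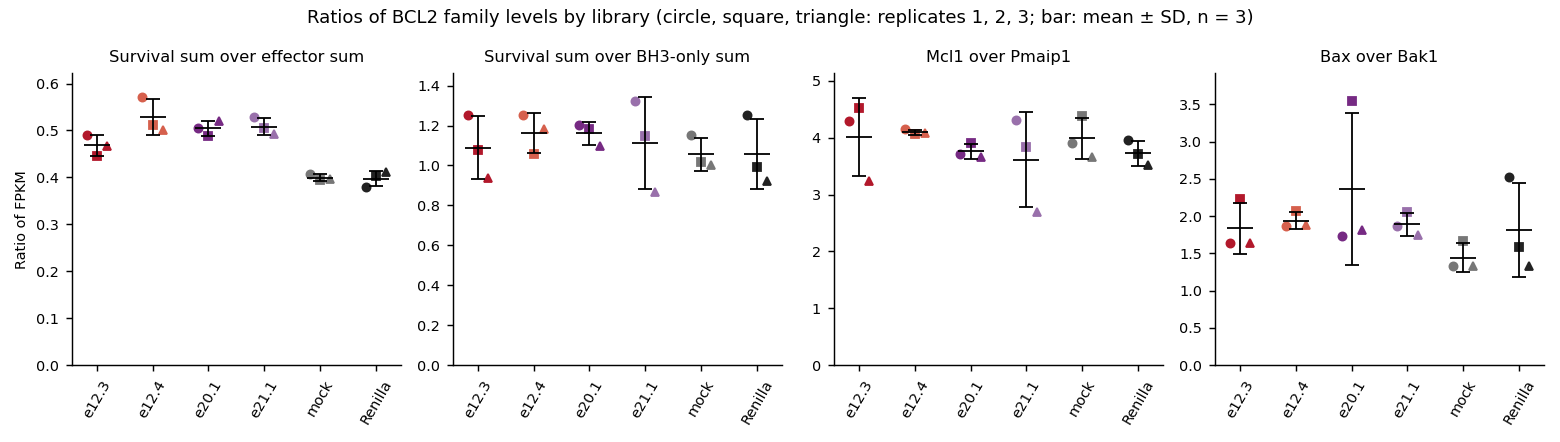
Ratios of FPKM levels (y axis, from 0) in each library by group (x axis), with the mean ± SD of 3. Survival over effector runs from 0.446 to 0.572 in guide libraries and from 0.380 to 0.411 in controls, survival over BH3-only and Mcl1 over Pmaip1 overlap, and Bax over Bak1 is highest in e20.1 replicate 2 at 3.54.

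The rest of the family and its pathway was read from lists of genes, of which those tested are counted here for the 4 guides against Renilla beside a median of -0.03 over all genes. These lists were also chosen with earlier results of these data known. Of 16 other BCL2 family genes 10 were tested, 4 rose and none fell, beside 7.77% of all genes called higher and 3.21% lower, with a median log2 fold change of 0.17. Over mock 3 of the 10 rose, beside 6.84% of all genes. Among them were 3 copies of Bcl2a1, a survival gene of myeloid cells: Bcl2a1d was at 9.11 ± 1.92 FPKM with the guides, against 4.52 ± 1.42 FPKM in Renilla (log2 fold change 0.88, SE 0.16, limma adjusted p = 0.0018). Bcl2a1a (28.5 ± 6.67 FPKM with the guides and 16.8 ± 5.90 in Renilla, 0.75, adjusted p = 0.014) and Bcl2a1b (27.6 ± 6.72 FPKM with the guides and 16.7 ± 5.09 in Renilla, 0.70, adjusted p = 0.024) lost the call without Renilla replicate 2 or 3 (adjusted p up to 0.11 and 0.15). These copies are nearly identical in sequence, so how reads were shared among them is uncertain. Bnip3, a mitochondrial protein of hypoxia and mitophagy, was at 58.4 ± 17.2 FPKM with the guides, against 36.4 ± 3.09 FPKM in Renilla (0.62, adjusted p = 0.045), and lost the call in 16 of 33 alternatives. Over mock it was not called (0.57, adjusted p = 0.080).

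Downstream of the mitochondria, the 19 tested genes of the apoptosome, the executioner caspases and the inhibitors of apoptosis had a median log2 fold change of -0.01. None of them fell, where 3.21% of all genes did, so this is no result about the list. Casp6, an executioner caspase, rose and was at 19.5 ± 2.14 FPKM with the guides, against 12.1 ± 1.31 FPKM in Renilla (log2 fold change 0.65, limma adjusted p = 0.0015). In the death receptor pathway 1 of 12 genes tested rose over Renilla and 1 over mock (median 0.04 over Renilla), near the 7.77% and 6.84% of all genes. This was Fas, the receptor for Fas ligand, at 8.70 ± 1.502 FPKM with the guides, against 3.93 ± 0.38 FPKM in Renilla (0.96, SE 0.12, adjusted p = 4.3e-05), called in all 33 alternatives. None of 13 outer membrane partners and regulators of MCL1 turnover was called by limma over Renilla (median -0.12), where 3.21% of all genes were called lower, and 3 had an unadjusted p under 0.05. With Renilla and mock as 1 control 3 were called lower, without Renilla replicate 1 and e20.1 replicate 2 these numbered 2, without all 4 libraries that stand apart 4, and with array quality weights 2 were called higher and 5 lower. Array quality weights called 4864 of all 11550 genes, against 1268 in the main fit, so those 2 and 5 are no result about this list. Over mock 1 of the 13 fell, where 2.16% of all genes did. This was Usp9x, named after its values were seen, whose product removes ubiquitin from MCL1. It was at 29.8 ± 3.34 FPKM with the guides, against 40.8 ± 2.18 FPKM in mock (log2 fold change -0.45, adjusted p = 0.011), and lost the call without mock replicate 1 (0.056) or 3 (0.087). Over Renilla it was not called (-0.26, adjusted p = 0.12).

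Of 17 tested transcription factors known to act on BCL2 family genes, 3 rose and none fell over Renilla (median 0.03), beside 7.77% of all genes called higher, and 2 rose over mock, beside 6.84%. Runx1, a blood cell regulator, was at 32.9 ± 5.17 FPKM with the guides, against 19.3 ± 4.21 FPKM in Renilla (log2 fold change 0.75, limma adjusted p = 0.0018). Foxo3, which is known to activate Bcl2l11 when cytokine signals fall, was at 14.7 ± 1.47 FPKM with the guides and 10.6 ± 0.61 FPKM in Renilla (0.43, adjusted p = 0.0023). Stat5b, a mediator of interleukin-3 signals, was at 21.3 ± 2.83 FPKM with the guides and 15.9 ± 1.72 FPKM in Renilla (0.39, adjusted p = 0.028), and lost the call without any 1 of the Renilla libraries (adjusted p up to 0.18). In mock Stat5b was at 18.2 ± 1.94 FPKM, and it was not called over mock (0.21, adjusted p = 0.29). Runx1 and Foxo3 were called in all 33 alternatives.

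The genes whose log2(FPKM + 1) followed a called member most closely over the 18 libraries were named by Pearson's r among those averaging 5 FPKM or more. As the libraries hold both guides and controls, r includes the difference between these groups and is only a description. For Bcl2 they were Frmd5 (0.96), Abcd2 (0.95) and Elovl7 (0.95), for Mcl1 Itgb5 (0.97) and Rgs10 (0.97), and for Bmf Hacd4 (0.95), Trp53inp1 (0.95) and Myadm (0.95). Bcl2l11 was closest to Nedd9, Abhd12 and Sirpa (0.93, 0.92 and 0.92). Pmaip1 was closest to the immediate early genes Junb, Dusp1 and Fos (0.95, 0.95 and 0.94). Among the members themselves r was 0.87 for Bcl2 and Mcl1, 0.85 for Bcl2 and Bmf and 0.85 for Bcl2 and Pmaip1, and -0.81 for Bax and Bak1.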

How the data were processed

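The authors deposited FPKM values for 18 libraries in a table of 23899 genes, and separate tables for 15 of them that differ by at most 3.3e-06 FPKM. The submitters' processing notes name mm10, bcl2fastq 2.22.0.422 for demultiplexing, Salmon 0.13.0, DESeq2 1.22.1 and R 3.5.3. Per the labels' protocols, RNA was extracted with TRIzol, selected for poly(A) and made into libraries with a NEBNext Ultra II Directional kit. No counts were used here, so tests on counts were not run. Depth was estimated from the steps of low FPKM values among 1473 genes. Of the 207 to 285 low values per library, 97.1 to 99.6% lay within 0.1 of a whole number of reads. The depth was chosen to make this share high, so the share is no separate check of it.

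From the FPKM values, log2(FPKM + 1) of the 11550 genes averaging 1 FPKM or more was fitted by limma-trend (R 4.3.3 and limma 3.58.1) using a mean for each of the 6 groups, with each guide weighted equally and p-values adjusted over all tested genes (Benjamini-Hochberg, threshold 0.05). This is the test the design named for FPKM. It was also run on simulated data with independent noise in each library. Those data held no libraries that stand apart, so that run does not show how the test behaves on the present libraries. As every member passed the filter, the permutation test planned for members under it was not needed. Positions are from GENCODE vM21 (GRCm38), which holds 98.92% of the symbols, and promoters from RefSeq (GRCm38.p6). Tables and figures were made with Python 3.11.15, numpy 2.4.6, pandas 2.3.3 and matplotlib 3.10.9.

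The members and lists were chosen with earlier results of these data known. All 10 members are described; from each other list up to 4 called genes with the smallest p are named, and for each called member the 3 genes with the highest r, apart from items that are not reported here. Alternatives were a pseudocount of 0.1, no filter, a filter of 5 FPKM in 3 libraries, only the compared groups in the model, a replicate block, each library or guide left out, upper-quartile scaling, array quality weights, both control groups together, and the third libraries of e12.3 and e21.1 left out. Leaving out Renilla replicate 1 and e20.1 replicate 2, alone or with those, was chosen after seeing the data.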

Additional observations from a re-analysis of the deposited data

How the results depend on the processing

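Bcl2, Mcl1 and Bmf were called for the 4 guides against Renilla in every alternative that tested them. Leaving out 1 library at a time, the number of members called ranged from 3 to 5 for the 4 guides against Renilla, 4 to 5 for the 4 guides against mock, 1 to 3 with e12.3, 3 to 4 with e12.4, 2 to 4 with e20.1 and 4 to 4 with e21.1, and was 0 in the other comparisons. Without Renilla replicate 1 and e20.1 replicate 2 it was 3 for the 4 guides against Renilla and 2 with e20.1. Without all 4 libraries that stand apart it was 7 for the 4 guides against Renilla, with Bcl2l1 and Bax added, as with array quality weights, which also gave 7 with e12.4. With only the compared groups in the model it was 0 with e12.3, 0 with e20.1 and 2 with e21.1, and with the filter of 5 FPKM in 3 libraries, which leaves out Bmf, 1 with e12.3. All genes called for the 4 guides against Renilla numbered 1268, 815 to 1499 with 1 library left out and 871 to 4864 under the other settings, the highest with array quality weights; with e21.1 there were 1098, and 332 to 2641. The genes that changed sign were uncalled: Bid over Renilla was -0.0424 without replicate 3 of e12.3 and e21.1 and -0.0485 without all 4, Bid over mock was -0.00213 with array quality weights, and with 1 library left out the log2 fold change over Renilla ranged from -0.0260 to 0.0987 for Bid, -0.0376 to 0.211 for Bcl2l1, -0.0261 to 0.283 for Bax and -0.151 to 0.000194 for Bak1. The cause of these shifts was not tested. The mean ratio of survival to effector transcript was 0.496 to 0.508 with the guides and 0.391 to 0.406 in Renilla with 1 library left out. Of 4 other lists, members called for the 4 guides against Renilla numbered 1 to 4 (other BCL2 family), 1 to 2 (death receptor), 0 to 1 (outer membrane, the 1 without e20.1 replicate 2) and 2 to 4 (transcription factors) with 1 library left out, and 6, 6, 7 and 11 with array quality weights. Upper-quartile factors of 0.985 to 1.055 gave 5 members for the 4 guides against either control.

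Replicate numbers are shared by all groups, but of 45 same-numbered pairs of libraries from different groups 26 had deviations from the group means correlated above 0.1 (-0.248 to 0.763), so the numbers were not taken to pair the libraries; the median r was 0.117 for these pairs and -0.0425 for pairs with unlike numbers, and 17 of 18 libraries were closest to their own number, which is a hint from the data and not from the design. With a replicate block 6 members were called for the 4 guides against Renilla and 6 against mock, Bbc3 being added (limma adjusted p = 0.036 and 0.017), as it was with e20.1 and with e21.1 and Mcl1 with e12.3 (adjusted p = 0.032).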
